A study of Homo sapiens with 26 samples.

Results

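Adhesion of airway epithelial cells to the matrix beneath them was followed through 32 genes, picked by name from the 58735 genes of the deposited count table: 6 laminin chains, 6 type IV collagen chains, 5 linkers and proteoglycans of the basement membrane, 6 components of the hemidesmosome, and 9 other integrin subunits and integrin activators. All 32 names were found in the table, each in a single row. Messenger RNA was measured by bulk RNA sequencing in 26 libraries of human airway epithelial cells, either the 16HBE14o- line with WT CFTR or the 16HBEge line, in which CFTR carries DeltaF508, the deletion that causes most cystic fibrosis (CF). CFTR is the apical chloride and bicarbonate channel of airway epithelium. The cells grew on Transwells, porous supports, and pairs of Transwells were pooled into 1 sample. The groups were CF cells in high glucose (17.5 mM, 6 libraries), CF cells in normal glucose (5.5 mM, 6 libraries), WT cells in high glucose (5 libraries), WT cells in normal glucose (6 libraries) and WT cells in normal glucose that were not polarized (3 libraries). Glucose treatment lasted 7 days with fresh medium each day. The labels do not say how the not polarized cells were grown otherwise, and the WT normal glucose group is called polarized here only in contrast to them.

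Several features limit these groups as models. The CF line is a gene-edited derivative and how many clones it represents is not stated, so genotype and clone cannot be told apart. Nor do the labels state whether replicate libraries are separate cultures, so p-values measure only the spread between these libraries, which may be technical. In bulk RNA, fewer cells of a type and less RNA per cell cannot be told apart.

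The basement membrane is a thin sheet of matrix on which epithelia rest. Laminins, trimers of an alpha, a beta and a gamma chain, form one network at the cell surface. Type IV collagen forms a second network that is crosslinked, and nidogens and heparan sulfate proteoglycans tie the networks together. Epithelial cells hold on to this sheet through integrins, receptors made of an alpha and a beta subunit. In the hemidesmosome, the integrin of ITGA6 and ITGB4 binds the laminin that contains LAMA3 and LAMB3 and is linked inside the cell to keratin filaments. Focal adhesions use integrins that contain ITGB1 or partners of ITGAV and are linked to actin. In the airway this apparatus is richest in basal cells, which anchor the epithelium.

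The libraries held between 14658319 and 20413839 counts each, and the 32 genes took 1.29 to 1.87% of them in the glucose groups and 0.949 to 0.959% in the not polarized cells. Epithelial identity matched the labels: EPCAM, CDH1, KRT8, KRT18 and KRT19 were each above 439 CPM in every library. CPM is the count scaled to the library total after adjustment by normalization factors. Among basal cell markers KRT5 lay at 23.5 to 103 CPM, KRT17 at 93.3 to 991 CPM and TP63 at no more than 1.06 CPM. Of 6 fibroblast markers 3 stayed below 1 CPM in all libraries, DCN and COL3A1 among them, as did 3 of 4 leukocyte markers, 2 of 4 endothelial markers and 2 of 3 smooth muscle markers. The fibroblast sum was 16.4 to 44.3 CPM in the glucose groups and 13.8 to 14.9 CPM in the not polarized cells, nearly all of it from COL1A1. Of the endothelial markers CDH5 lay at 11.1 to 27.2 CPM and KDR at 7.20 to 38.8 CPM. The endothelial sum was 43.5 to 49.4 CPM in CF high glucose, 32.2 to 64.0 in CF normal glucose, 21.9 to 29.8 in WT high glucose, 19.8 to 25.4 in WT normal glucose and 44.8 to 48.9 CPM in not polarized cells. Libraries numbered 1 to 3 and libraries numbered 4 to 6 formed separate sets within the glucose groups. In all 4 glucose groups, 10 of the 31 members tested (LAMA5, LAMB1, LAMB2, LAMC1, HSPG2, AGRN, COL7A1, ITGB4, PLEC and DST) had every library numbered 4 to 6 above every library numbered 1 to 3, against 5.10% of all genes tested. No member had the opposite order in all 4 groups, against 7.50% of genes. Genes with the higher set 4 to 6 had a median annotated length of 8406 bases, against 4407 bases for all genes tested. What the numbers mark is not stated. Values within the sets are given beside many, though not all, of the results whose calls they change. The 3 not polarized libraries stood unusually close together, with a chi-square of 2.01 to 2.30 per gene between pairs, against 2.56 to 61.6 within the other groups.

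Per unit of transcript length, expressed as FPKM (fragments scaled to transcript length and library total), LAMB3 was the most abundant of the 32 messages in each of the 5 groups, and the minor collagen chains COL4A3 and COL4A4 were the least. LAMB3, the beta chain of the hemidesmosomal laminin, averaged 318 ± 24.8 FPKM in CF high glucose, 375 ± 100.3 in CF normal glucose, 308 ± 20.9 in WT high glucose, 289 ± 15.3 in WT normal glucose and 183 ± 2.63 in not polarized cells (SD, n = 6, 6, 5, 6 and 3). Its alpha partner LAMA3 averaged 43.6 ± 2.82 FPKM in CF high glucose, 43.2 ± 9.64 in CF normal glucose, 36.6 ± 4.80 in WT high glucose, 26.6 ± 2.72 in WT normal glucose and 35.5 ± 0.668 in not polarized cells. LAMA5, the alpha chain of the more general epithelial laminins, lay above LAMA3 in all 5 groups, at 79.4 ± 15.6 FPKM in CF high glucose, 88.6 ± 16.1 in CF normal glucose, 77.1 ± 16.9 in WT high glucose, 95.2 ± 16.8 in WT normal glucose and 47.3 ± 0.356 in not polarized cells. Its usual partners LAMB1, LAMB2 and LAMC1 lay between 15.7 and 67.3 FPKM in group means. The beta chain message of the hemidesmosomal laminin thus exceeded its alpha chain several-fold everywhere, as the chain ratios below give.

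**Figure D1:**
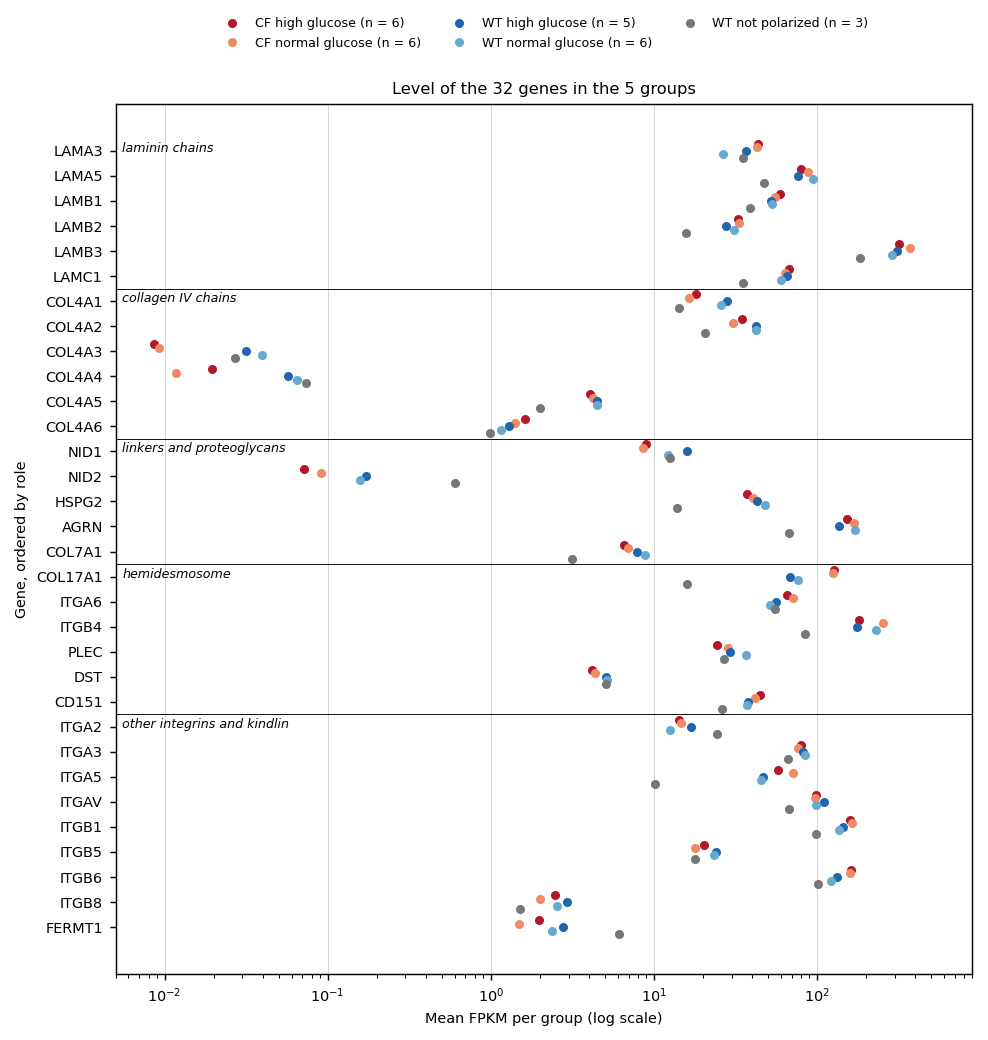
Mean FPKM of the 32 genes in each of the 5 groups, on a log axis and grouped by role (laminin chains, collagen IV chains, linkers and proteoglycans, hemidesmosome, other integrins and kindlin). LAMB3 is the highest point in each group, NID2, COL4A3 and COL4A4 are the lowest, and COL17A1 and ITGA5 show a wide gap between the polarized groups and not polarized cells.

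Among type IV collagens, COL4A1 and COL4A2, which together form the trimer of nearly all basement membranes, dominated. COL4A2 averaged 34.7 ± 2.15 FPKM in CF high glucose, 30.7 ± 3.95 in CF normal glucose, 42.6 ± 4.65 in WT high glucose, 42.3 ± 2.81 in WT normal glucose and 20.5 ± 0.469 in not polarized cells. COL4A5 and COL4A6, which assemble into another trimer, were at 2.00 to 4.50 and 0.994 to 1.63 FPKM in group means. COL4A3 and COL4A4, partners of COL4A5 in the kidney and alveolar basement membrane, did not exceed 0.0731 FPKM in any group mean. COL4A3 had at most 10 counts in a library, was below the count filter and is the 1 member that was not tested. COL4A4 had at most 19.

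The genes COL4A1 (GRCh38 chr13:110148963-110307233, minus strand) and COL4A2 (chr13:110305812-110513209, plus strand) overlap at their starts and are read in opposite directions. Their start sites lie 127 bases apart in RefSeq, and the 2 promoter windows of 300 bases (250 before to 50 after the start) share 226 bases. Both are printed because the genes share this stretch and moved in the same direction between the lines and with polarization. Capitals mark a CCAAT box on either strand (ATTGG is CCAAT on the other strand), which is a single shared copy. Such a box occurred in 11 of 36 member windows (30.6%) and in 34.6% of all 35116 promoter windows. The windows are from RefSeq on GRCh38.p14 at chr13:110307108-110307407 (COL4A1, minus strand) and chr13:110307034-110307333 (COL4A2, plus strand).
COL4A1: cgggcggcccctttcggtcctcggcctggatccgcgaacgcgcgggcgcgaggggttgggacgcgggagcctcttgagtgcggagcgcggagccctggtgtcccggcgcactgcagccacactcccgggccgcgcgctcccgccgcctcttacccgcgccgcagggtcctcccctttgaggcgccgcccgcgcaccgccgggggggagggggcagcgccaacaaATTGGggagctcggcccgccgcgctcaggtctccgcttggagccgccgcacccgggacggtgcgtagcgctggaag
COL4A2: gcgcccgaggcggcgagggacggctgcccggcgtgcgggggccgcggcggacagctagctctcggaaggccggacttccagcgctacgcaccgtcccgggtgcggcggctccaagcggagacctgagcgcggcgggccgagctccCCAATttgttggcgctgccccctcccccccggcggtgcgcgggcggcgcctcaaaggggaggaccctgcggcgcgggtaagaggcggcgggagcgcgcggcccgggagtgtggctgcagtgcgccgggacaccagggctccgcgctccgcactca

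Of the linkers, agrin (AGRN), a heparan sulfate proteoglycan, was the most abundant at 67.8 to 173 FPKM in group means. Perlecan (HSPG2), the other large proteoglycan, had group means of 13.8 to 48.1 FPKM, and COL7A1, which forms the anchoring fibrils below the membrane, 3.14 to 8.88 FPKM. NID1, a nidogen, lay at 8.63 to 16.0 FPKM, while NID2 did not exceed 0.603 FPKM. NID2 overlaps RTRAF on the opposite strand, a gene with a mean of 1733 counts against 19.9 for NID2, and the sources used here do not state that counting used the strand, so values of NID2 are uncertain. LAMB1, LAMA5 and CD151 also overlap an expressed gene on the other strand (DLD, ADRM1 and POLR2L, at 29.7, 11.2 and 9.91% of the member's counts). COL4A1 and COL4A2 overlap each other at their starts. COL4A2 had 219% of the counts of COL4A1, and COL4A1 had 45.6% of those of COL4A2. The part of strand in their values and their ratio was not tested.

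In the hemidesmosome, ITGB4 was highest, with group means of 84.7 to 255 FPKM, and exceeded its alpha partner ITGA6 (51.8 to 71.7 FPKM) in all 5 groups. COL17A1, the transmembrane collagen of the hemidesmosome, had group means of 15.9 to 127 FPKM. The plakins that tie the complex to keratin were lower, PLEC at 24.5 to 37.0 and DST at 4.19 to 5.15 FPKM, and the tetraspanin CD151, which binds laminin-receptor integrins, lay at 26.1 to 44.7 FPKM. Among the other integrins, ITGB1 (98.7 to 164 FPKM) and ITGB6 (102 to 161 FPKM) were the most abundant beta subunits and ITGAV (67.1 to 110.2 FPKM) and ITGA3 (66.4 to 84.1 FPKM) the most abundant alpha subunits. ITGA2, a collagen receptor subunit, lay at 12.6 to 24.6 FPKM and FERMT1, the epithelial kindlin that activates integrins from inside the cell, at 1.49 to 6.15 FPKM.

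High glucose in CF cells was accompanied by less ITGB4, the beta subunit of the hemidesmosomal integrin, and by slightly more ITGB5, ITGB8 and FERMT1. ITGB4 had a lowest, median and highest value of 1081, 1227 and 1375 CPM in CF high glucose, against 1367, 1767 and 2039 CPM in CF normal glucose. The groups overlapped only at their edges, the highest library in high glucose lying just above the lowest in normal glucose. ITGB4 fell, with a log2 fold change of −0.49 (SE 0.09, adjusted p = 0.000953 by edgeR's quasi-likelihood test with Benjamini-Hochberg adjustment over all genes, as for all adjusted p-values of single genes below). Within libraries 1 to 3 its change was −0.34 and within libraries 4 to 6 −0.61 (adjusted p = 0.00139 and 1.46e-10). The 3 genes that rose did so by little. ITGB8, a subunit of an integrin that activates latent TGF-beta, had 35.2, 37.3 and 42.1 CPM in CF high glucose, against 26.4, 30.2 and 36.0 CPM in CF normal glucose (log2 fold change 0.30, SE 0.08, adjusted p = 0.0127). FERMT1 had 7.91, 10.9 and 12.4 CPM in CF high glucose, against 6.32, 8.14 and 9.27 CPM in CF normal glucose (0.41, SE 0.12, adjusted p = 0.0289). ITGB5, a beta partner of ITGAV in vitronectin receptors, had 124, 132 and 137 CPM in CF high glucose, against 104, 117 and 127 CPM in CF normal glucose (0.18, SE 0.05, adjusted p = 0.0444). The groups overlapped for all 4 genes, and no member was without overlap, against 4.62% of all genes.

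These 4 were the members past an adjusted p of 0.05 among 31 tested, 3 higher and 1 lower, where 8.41% of all genes passed (4.27% higher, 4.14% lower). The median log2 fold change of the members was 0.01, near that of all genes (0.00). No laminin, collagen IV or linker gene passed. With a term for the set of library numbers COL4A1 and COL4A2 passed as higher in high glucose (0.15 and 0.19, adjusted p = 0.0331 and 0.00454), and so they did within libraries 1 to 3 alone (0.28 and 0.30, adjusted p = 0.00654 and 0.00266). With that term LAMA5 and AGRN passed as lower (−0.16 and −0.14, adjusted p = 0.0280 and 0.0158), and HSPG2 did within libraries 4 to 6 alone (−0.28, adjusted p = 0.000901). PLEC and ITGA6 also passed as lower with the term for the set (−0.23 and −0.14, adjusted p = 0.00288 and 0.0416). The call of ITGB5 was lost on leaving out CF high glucose library 2, 3, 4, 5 or 6 or CF normal glucose library 1, 2, 3 or 6 (adjusted p up to 0.126), and that of FERMT1 on leaving out CF high glucose library 2, 4 or 6 or CF normal glucose library 1, 4, 5 or 6 (up to 0.0922). ITGA5, at −0.31 and adjusted p = 0.115, was called on leaving out CF normal glucose library 1 or 3 (lowest 0.0250). Within libraries 1 to 3 alone 9 members were called, 7 higher and 2 lower (8.44% of genes), within libraries 4 to 6 alone 9, 1 higher and 8 lower (13.8%), and with a term for the set 10, 5 in each direction (17.2%). ITGB5 and ITGB8 were called within libraries 1 to 3 alone (adjusted p = 0.0209 and 0.00379) and not within libraries 4 to 6 alone (0.325 and 0.212). FERMT1 was called within libraries 4 to 6 alone (0.0167) and not within libraries 1 to 3 alone (0.127).

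In WT cells, high glucose was accompanied by more LAMA3 and ITGA2 and, as in CF cells, by less ITGB4. LAMA3, the alpha chain of the hemidesmosomal laminin, had 463, 499, 509, 637 and 603 CPM in the 5 WT high glucose libraries, against 345, 392 and 442 CPM (lowest, median and highest) in WT normal glucose. Every high glucose library lay above every normal glucose library, and LAMA3 rose by 0.46 on the log2 scale (SE 0.11, adjusted p = 0.0223). ITGA2, which pairs with ITGB1 as a collagen receptor, had 109.8, 119, 133, 157 and 157 CPM in WT high glucose, against 89.3, 100.1 and 118 CPM in WT normal glucose. It rose by 0.43 (SE 0.12, adjusted p = 0.0447), with groups that overlapped. ITGB4 had 1149, 1165, 1074, 1342 and 1266 CPM in WT high glucose, against 1447, 1561 and 1675 CPM in WT normal glucose. Here the groups did not overlap, and ITGB4 fell, with a log2 fold change of −0.39 (SE 0.10, adjusted p = 0.0232).

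The 3 calls among 31 members compare with 2.96% of all genes (1.49% higher, 1.47% lower). Groups without overlap were seen for LAMA3, ITGB4 and COL17A1, against 4.01% of all genes. COL17A1 lay at 489.9, 481, 498, 483 and 501 CPM in WT high glucose, against 532, 544 and 575 CPM in WT normal glucose, a narrow separation that did not pass the test (−0.16, adjusted p = 0.536). AGRN lay at 1344, 1347, 1284, 1769.8 and 1665 CPM in WT high glucose, against 1643, 1868 and 2089 CPM in WT normal glucose (−0.34, adjusted p = 0.0518). It was called on leaving out WT high glucose library 4 or WT normal glucose library 2 (lowest adjusted p 0.0305), with DESeq2 and with no low-count filter. The call of ITGA2 was lost without WT high glucose library 3, 4 or 5 or WT normal glucose library 1, 2, 3, 4 or 6 (adjusted p up to 0.117). That of LAMA3 was lost without WT high glucose library 4 or 5 or WT normal glucose library 2 or 3 (up to 0.0752), and that of ITGB4 without WT high glucose library 1, 2 or 3 or WT normal glucose library 4 or 6 (up to 0.1004). Within each set of library numbers alone, LAMA3, ITGB4, ITGA2 and AGRN all passed, among 7 members in libraries 1 to 3 (2.65% of genes), 6 in libraries 4 to 6 (4.88%) and 7 with a term for the set (8.68%). LAMA3 rose by 0.46 within libraries 1 to 3 and 0.54 within libraries 4 to 6 (adjusted p = 0.000228 and 4.86e-07). With the term for the set PLEC and LAMA5 passed as lower in high glucose (−0.31 and −0.27, adjusted p = 0.000503 and 0.00125). LAMC1 passed as higher with it (0.15, adjusted p = 0.0413).

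**Figure D2:**
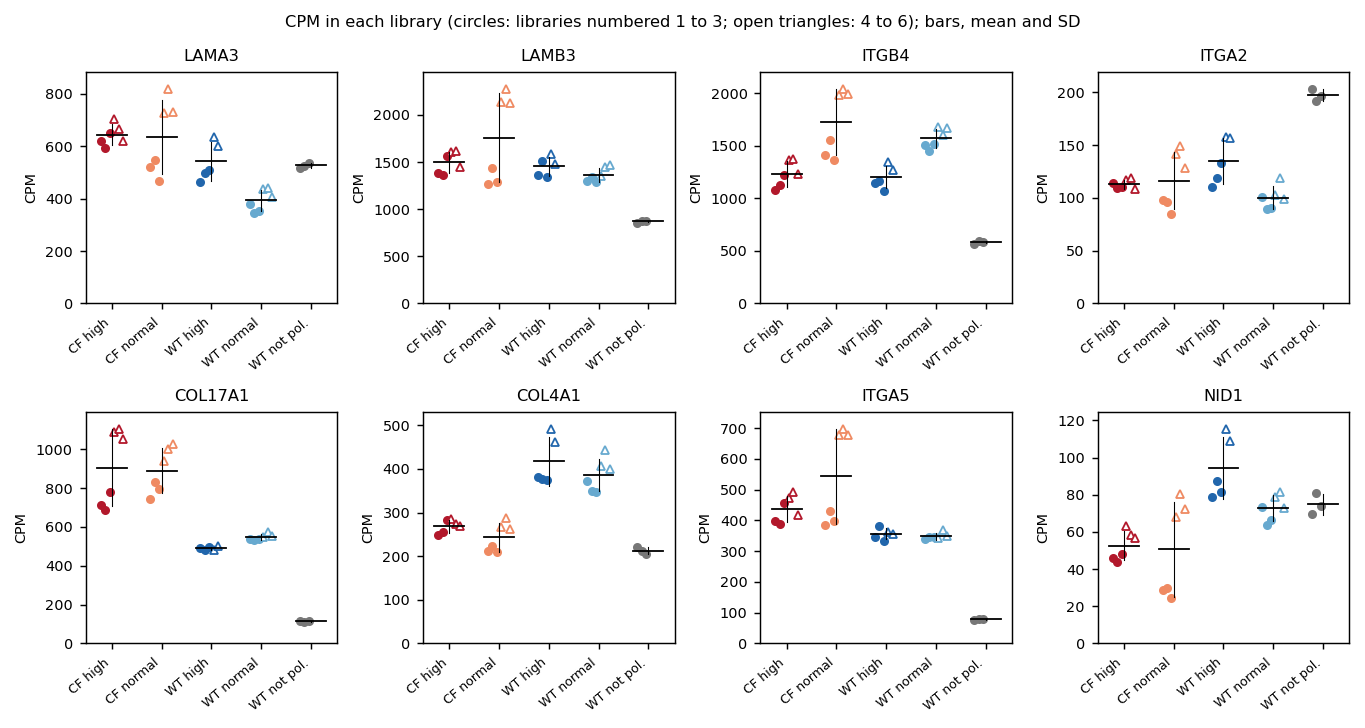
CPM in every library of LAMA3, LAMB3, ITGB4, ITGA2, COL17A1, COL4A1, ITGA5 and NID1 in the 5 groups, with libraries numbered 1 to 3 as circles, those numbered 4 to 6 as open triangles, and the mean and SD beside them. In CF normal glucose the triangles of LAMA3, LAMB3, ITGB4, ITGA2, ITGA5 and NID1 lie well above the circles, while in CF high glucose the sets lie closer together except for COL17A1.

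Whether glucose acted differently in the lines was asked with the interaction, the CF response minus the WT response. No member passed by edgeR (3 at an unadjusted p under 0.05) or by DESeq2, and 0.0367% of all genes passed. The members with the lowest p were ITGA2 (−0.48, SE 0.16, unadjusted p = 0.00771, adjusted p = 0.447) and LAMA3 (−0.45, SE 0.16, unadjusted p = 0.00887, adjusted p = 0.467). The library sets differed here. CF normal glucose libraries 4 to 6 stood high for LAMB3, at 2139, 2275 and 2129.7 CPM, against 1267, 1438 and 1294 CPM in libraries 1 to 3 of the same group. In CF high glucose the sets were close, with 1606, 1620.3 and 1450.3 CPM in libraries 4 to 6, against 1384, 1365 and 1565 CPM in libraries 1 to 3. The same held for NID1, at 68.1, 80.5 and 72.6 CPM in libraries 4 to 6 of CF normal glucose, against 28.5, 29.7 and 24.3 CPM in libraries 1 to 3.

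The CF glucose response had opposite signs in the sets for 3 genes that passed within each. NID1 was higher in high glucose by 0.73 within libraries 1 to 3 (SE 0.09, adjusted p = 5.21e-06) and lower within libraries 4 to 6 (−0.32, SE 0.07, adjusted p = 0.000947). LAMA3 was higher by 0.28 within libraries 1 to 3 (SE 0.07, adjusted p = 0.0112) and lower within libraries 4 to 6 (−0.20, SE 0.06, adjusted p = 0.0205). ITGA2 was higher by 0.26 (SE 0.08, adjusted p = 0.0381) within libraries 1 to 3 and lower within libraries 4 to 6 (−0.30, SE 0.07, adjusted p = 0.00145). LAMB3 and ITGA5, the fibronectin receptor subunit, fell within libraries 4 to 6 (−0.50 and −0.58, adjusted p = 2.97e-08 and 1.8e-09) and had 0.10 and 0.03 within libraries 1 to 3 (adjusted p = 0.392 and 0.831). In WT cells LAMA3, ITGA2 and NID1 rose within both sets. Within libraries 4 to 6 alone, the interaction passed for 6 members, where 2.29% of genes did: NID1 (−0.86), ITGA2 (−0.86), LAMA3 (−0.74), LAMB3 (−0.61), ITGA5 (−0.61) and COL17A1 (0.29). Within libraries 1 to 3 alone it passed for none, where 0.00626% of genes did, and with a term for the set it passed for LAMA3 (−0.45, adjusted p = 0.00991) and ITGA2 (−0.47, adjusted p = 0.0368), where 0.894% did. The part of what the numbers mark in these differences was not tested. ITGB4 was lower in high glucose in both lines and both sets, at −0.34 and −0.61 in CF cells and −0.39 and −0.33 in WT cells in libraries 1 to 3 and 4 to 6.

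**Figure D3:**
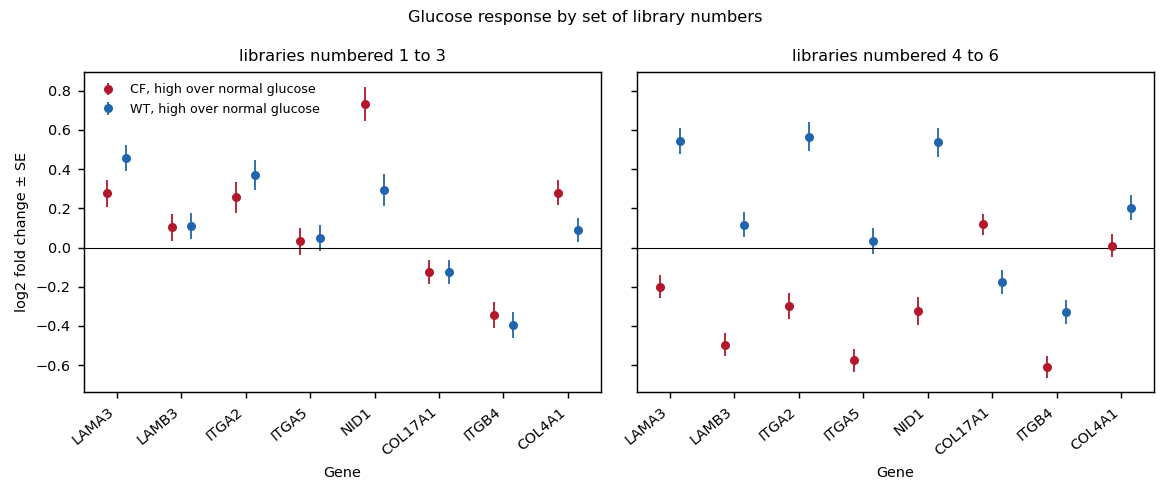
Log2 fold change of high over normal glucose, with SE, in CF and in WT cells, computed within libraries numbered 1 to 3 and within libraries numbered 4 to 6, for LAMA3, LAMB3, ITGA2, ITGA5, NID1, COL17A1, ITGB4 and COL4A1. In CF cells NID1, LAMA3 and ITGA2 lie on opposite sides of 0 in the sets, while in WT cells they lie above 0 in both, and ITGB4 lies below 0 in all 4.

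In normal glucose, CF cells had less COL4A1, COL4A2 and COL4A4, NID2, PLEC, ITGB5, ITGB8 and FERMT1, and more LAMA3, LAMB3, COL17A1, ITGA6, ITGA5, ITGB1 and ITGB6, than WT cells. These 15 of 31 members (7 higher, 8 lower) compare with 24.4% of all genes (11.4% higher, 13.0% lower), and for 11 members the lines did not overlap, against 12.9% of genes. In high glucose 10 members passed, 3 higher (COL17A1, ITGA6 and ITGB6) and 7 lower (COL4A1, COL4A2, NID1, NID2, ITGB5, ITGB8 and FERMT1), against 19.9% of all genes (9.35% higher, 10.6% lower), and 9 did not overlap, against 14.1%. The lines also differed within each set of library numbers alone: 18 members in libraries 1 to 3 (22.8% of genes) and 21 in libraries 4 to 6 (30.3%) in normal glucose, and 13 (19.0%) and 21 (27.9%) in high glucose. With a term for the set 22 passed in normal glucose (34.5%) and 24 in high glucose (30.4%). Each line comparison shares its groups with a glucose comparison above, so the results are not independent of each other. The endothelial marker sums given above did not overlap between the lines at either glucose level. The fibroblast marker sum was 16.4 to 26.3 CPM in CF normal glucose, against 27.2 to 44.3 CPM in WT normal glucose, and 19.6 to 31.2 CPM in CF high glucose, against 27.4 to 42.6 CPM in WT high glucose. The part of either in the line differences was not tested.

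Of the laminin chains, 2 of 6 were higher in CF cells in normal glucose and none passed in high glucose. LAMA3 had 466, 637 and 819 CPM in CF normal glucose, against 345, 392 and 442 CPM in WT normal glucose, with no overlap (0.69, SE 0.11, adjusted p = 2.27e-05). In high glucose LAMA3 had 594, 636 and 706 CPM in CF cells, against 463, 499, 509, 637 and 603 CPM in WT cells, and did not pass (0.24, SE 0.11, adjusted p = 0.150). LAMB3 had 1267, 1784 and 2275 CPM in CF normal glucose, against 1289, 1345 and 1468 CPM in WT normal glucose (0.36, SE 0.11, adjusted p = 0.0195). That difference lay in the libraries numbered 4 to 6, at 0.63 (adjusted p = 1.34e-11), against 0.03 in libraries 1 to 3 (adjusted p = 0.831), and its call was lost without CF normal glucose library 4, 5 or 6 (adjusted p up to 0.0641). LAMA3 passed in both sets in normal glucose, at 0.51 and 0.84. With a term for the set LAMA3, LAMB1 and LAMB2 passed as higher in CF cells in high glucose (0.23, 0.13 and 0.18, adjusted p = 0.00765, 0.0478 and 0.00448).

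Promoter windows of LAMA3, LAMB3 and ITGA5 are printed because each holds a match to TGANTCA, the core of an AP-1 site. These genes also differed between the lines in normal glucose. Their libraries numbered 4 to 6 all lay above those numbered 1 to 3 in 3, 2 and 1 of the 4 glucose groups, in that order. COL17A1, COL4A1 and COL4A2 also differed between the lines and had that order of libraries in 3 of the 4 groups, without a match in their windows. The windows were picked by the match, and its part in these differences was not tested. LAMA3, LAMB3 and ITGA5 hold 3 of the 4 member windows with a match. The fourth is a window of DST. The motif reads the same on both strands, was found in 4 of 36 windows of the 26 members with a window (11.1%) and in 7.71% of all windows, and a match is a string of letters, not a binding site. Capitals mark the matches, which begin 125 and 69 bases before the start in LAMA3, 67 bases before it in LAMB3 and 6 bases before it in ITGA5. The windows are from RefSeq on GRCh38.p14 at chr18:23872770-23873069 (LAMA3, plus strand, an internal start of a gene that begins at 23689443), chr1:209651325-209651624 (LAMB3, minus strand, 1 of its 3 starts) and chr12:54419217-54419516 (ITGA5, minus strand).
LAMA3: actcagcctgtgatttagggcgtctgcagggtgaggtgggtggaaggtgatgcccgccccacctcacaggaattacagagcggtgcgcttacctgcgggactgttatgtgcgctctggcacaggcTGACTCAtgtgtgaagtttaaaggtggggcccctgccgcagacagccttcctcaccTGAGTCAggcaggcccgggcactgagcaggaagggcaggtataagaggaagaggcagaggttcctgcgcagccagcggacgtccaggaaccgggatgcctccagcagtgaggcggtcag
LAMB3: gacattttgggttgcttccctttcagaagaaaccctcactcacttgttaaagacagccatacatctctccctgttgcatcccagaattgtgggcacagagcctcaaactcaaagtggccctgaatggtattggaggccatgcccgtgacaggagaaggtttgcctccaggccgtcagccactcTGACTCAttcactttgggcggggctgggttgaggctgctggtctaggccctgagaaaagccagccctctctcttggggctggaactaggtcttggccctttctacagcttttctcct
ITGA5: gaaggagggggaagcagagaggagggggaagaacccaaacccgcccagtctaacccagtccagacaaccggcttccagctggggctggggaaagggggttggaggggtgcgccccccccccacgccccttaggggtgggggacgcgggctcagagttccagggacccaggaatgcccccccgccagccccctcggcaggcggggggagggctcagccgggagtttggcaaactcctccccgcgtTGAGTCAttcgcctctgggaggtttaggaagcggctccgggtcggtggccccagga

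Type IV collagen was lower in CF cells at both glucose levels, the chains COL4A1 and COL4A2 together. COL4A1 had 209, 243 and 287 CPM in CF normal glucose, against 346, 387 and 443 CPM in WT normal glucose (−0.66, SE 0.08, adjusted p = 6.66e-07). In high glucose it had 248, 271 and 284 CPM in CF cells, against 381, 376, 375, 491 and 462 CPM in WT cells (−0.64, SE 0.09, adjusted p = 2.91e-06). Every CF library lay below every WT library. COL4A2 had 509, 595 and 694 CPM in CF normal glucose, against 768, 812 and 921 CPM in WT normal glucose (−0.47, SE 0.08, adjusted p = 2.62e-05). In high glucose it had 609, 670.5 and 722 CPM in CF cells, against 774, 768, 748, 963 and 893 CPM in WT cells (−0.30, SE 0.08, adjusted p = 0.00602). Neither gene overlapped between the lines at either glucose level, and COL4A1 was lower in each library set (−0.73 and −0.60 in normal glucose, −0.54 and −0.80 in high glucose). COL4A4 was lower in normal glucose on few counts, at 0, 0.129 and 0.213 CPM in CF cells, against 0.273, 0.654 and 1.02 CPM in WT cells (−2.42, SE 0.64, adjusted p = 0.0055). Within libraries 4 to 6 alone COL4A4 missed the threshold in normal glucose (−1.78, adjusted p = 0.0510). COL4A5 and COL4A6 did not pass at either glucose level. With a term for the set COL4A6 passed as higher in CF cells at both levels (0.27 in normal and 0.28 in high glucose, adjusted p = 0.0318 and 0.0352), and within libraries 4 to 6 alone it did too (0.43 at each, adjusted p = 0.00541 and 0.0105). COL4A5 passed as lower in CF cells in high glucose within libraries 1 to 3 alone (−0.31, adjusted p = 0.0188).

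Among the linkers, both nidogens were lower in CF cells in high glucose. NID1 had 43.8, 52.5 and 63.2 CPM in CF high glucose, against 78.9, 87.3, 81.5, 115 and 109 CPM in WT high glucose, with no overlap (−0.85, SE 0.24, adjusted p = 0.0131). In normal glucose NID1 differed by −1.30 within libraries 1 to 3 (adjusted p = 8.97e-12) and by −0.06 within libraries 4 to 6 (adjusted p = 0.53), and it was called over both sets on leaving out CF normal glucose library 5 (adjusted p = 0.0278). NID2 had 0.331, 0.457 and 0.595 CPM in CF high glucose, against 1.15, 0.849, 0.929, 1.25 and 1.35 CPM in WT high glucose (−1.25, SE 0.28, adjusted p = 0.00162). In normal glucose it had 0.331, 0.563 and 0.922 CPM in CF cells, against 0.534, 1.13 and 1.40 CPM in WT cells (−0.80, SE 0.27, adjusted p = 0.0291). The call in normal glucose was lost without CF normal glucose library 1, 2 or 5 or WT normal glucose library 1, 5 or 6 (adjusted p up to 0.0840). Within the sets NID2 passed in neither in normal glucose (−1.05 and −0.59, adjusted p = 0.0938 and 0.294), nor in high glucose within libraries 1 to 3 (−1.16, adjusted p = 0.0680). HSPG2, AGRN and COL7A1 passed at neither glucose level in the fit without the set. With a term for it COL7A1 passed as lower in CF cells at both levels (−0.37 in normal and −0.34 in high glucose, adjusted p = 2.44e-06 and 2.83e-05), as it did within each set alone. HSPG2 passed as lower with that term as well (−0.29 and −0.26, adjusted p = 0.000624 and 0.00320), and AGRN as higher in high glucose (0.12, adjusted p = 0.0379).

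In the hemidesmosome, COL17A1 and ITGA6 were higher in CF cells at both glucose levels, while ITGB4 passed at neither. Within libraries 4 to 6 alone ITGB4 passed as higher in CF cells in normal glucose (0.29, adjusted p = 6.03e-05). COL17A1 had 688, 916 and 1104 CPM in CF high glucose, against 489.9, 481, 498, 483 and 501 CPM in WT high glucose (0.88, SE 0.11, adjusted p = 5.2e-07). In normal glucose it had 744, 884 and 1028 CPM in CF cells, against 532, 544 and 575 CPM in WT cells (0.70, SE 0.10, adjusted p = 5.4e-06). Every CF library lay above every WT library at the same glucose, and COL17A1 was 0.56 higher in libraries 1 to 3 and 0.84 higher in libraries 4 to 6 in normal glucose, and 0.56 and 1.13 in high glucose. ITGA6 had 432, 457 and 522 CPM in CF normal glucose, against 316, 349 and 358 CPM in WT normal glucose (0.46, SE 0.06, adjusted p = 2.81e-06). In high glucose it had 384, 428 and 481 CPM in CF cells, against 342, 344, 378, 389.9 and 383 CPM in WT cells (0.22, SE 0.07, adjusted p = 0.0184), a call lost without CF high glucose library 4 or 5 or WT high glucose library 1 or 2 (adjusted p up to 0.0758). Within libraries 1 to 3 alone it was 0.11 in high glucose and did not pass (adjusted p = 0.242). PLEC had 383, 492 and 569 CPM in CF normal glucose, against 475, 655 and 725 CPM in WT normal glucose (−0.38, adjusted p = 0.0468). Its call was lost on leaving out any of 10 of the 12 libraries, that is all but CF normal glucose library 5 and WT normal glucose library 2 (adjusted p up to 0.123).

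The other integrins differed in both directions. ITGA5, the fibronectin receptor subunit, had 384, 553 and 697 CPM in CF normal glucose, against 339, 346 and 369.6 CPM in WT normal glucose, with no overlap (0.64, SE 0.12, adjusted p = 0.000207). The difference was 0.23 in libraries 1 to 3 and 0.96 in libraries 4 to 6 (adjusted p = 0.0151 and 1.04e-16). In high glucose ITGA5 had 388, 437 and 493 CPM in CF cells, against 346, 382, 334, 361 and 357 CPM in WT cells. The groups did not overlap, yet ITGA5 did not pass in the shared fit (0.30, adjusted p = 0.109), and it passed in a fit of these groups alone (adjusted p = 0.00818). ITGB6, an epithelial partner of ITGAV that activates latent TGF-beta, was higher at both glucose levels (0.39 in normal and 0.26 in high glucose, adjusted p = 1.93e-05 and 0.00388), while ITGB5 was lower at both (−0.38 and −0.26, adjusted p = 4.75e-06 and 0.00133). ITGB6 had 675, 746 and 865 CPM in CF high glucose, against 621, 672, 645, 619.6 and 598 CPM in WT high glucose. ITGB5 had 124, 132 and 137 CPM in CF high glucose, against 157, 153, 166, 163 and 144 CPM in WT high glucose. FERMT1 was lower at both levels, with 6.32, 8.14 and 9.27 CPM in CF normal glucose, against 10.0, 13.2 and 15.3 CPM in WT normal glucose (−0.68, SE 0.12, adjusted p = 7.83e-05). In high glucose FERMT1 had 7.91, 10.9 and 12.4 CPM in CF cells, against 14.8, 13.9, 12.7, 17.6 and 16.4 CPM in WT cells (−0.49, SE 0.12, adjusted p = 0.00321). The lines did not overlap at either level, though FERMT1 in high glucose missed the threshold within libraries 1 to 3 alone (−0.36, adjusted p = 0.0540). ITGB1, the shared beta subunit, was 0.24 higher in CF cells in normal glucose (adjusted p = 0.00122). ITGB8 was lower at both levels (−0.35 and −0.25, adjusted p = 0.000977 and 0.0264). The call of ITGB8 in high glucose was lost without CF high glucose library 3 or 6 or WT high glucose library 3 or 4 (adjusted p up to 0.102). ITGB8 did not pass in normal glucose within libraries 4 to 6 alone (−0.16, adjusted p = 0.154) or in high glucose within libraries 1 to 3 alone (−0.23, adjusted p = 0.0883).

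Neighbours on the chromosome were set beside the members called between the lines, since gene-edited lines can differ over long stretches. They are given here for LAMA3, LAMB3, COL4A1, COL17A1 and ITGB8 and not for the other members called. Within 2 Mb of LAMA3, 1 of 13 protein-coding genes tested was higher in CF normal glucose and 1 lower, with a median log2 fold change of 0.07. Around LAMB3, 5 of 15 were higher and 1 lower, with a median of 0.25. Around COL4A1, 1 of 10 was higher and 4 lower in normal glucose (median −0.16), and 0 were higher and 1 lower in high glucose (median −0.15). The member COL4A2 is counted among these neighbours. It is 1 of the 4 lower genes in normal glucose and the 1 lower gene in high glucose. Around COL17A1, 3 of 36 were higher and none lower in normal glucose (median −0.01), and 3 were higher and 1 lower in high glucose (median 0.03). Around ITGB8, 2 of 6 were higher and 1 lower in normal glucose (median 0.01), and 0 were higher and 3 lower in high glucose (median −0.16). The part of the neighbourhood in each difference was not tested. Of members not called between the lines, 3 more were called on leaving out 1 library: ITGA2 in normal glucose without CF normal glucose library 3 (adjusted p = 0.0421), COL4A4 in high glucose without CF high glucose library 4 (0.0216), and CD151 in high glucose without WT high glucose library 1 or 2 (lowest 0.0371).

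**Figure D4:**
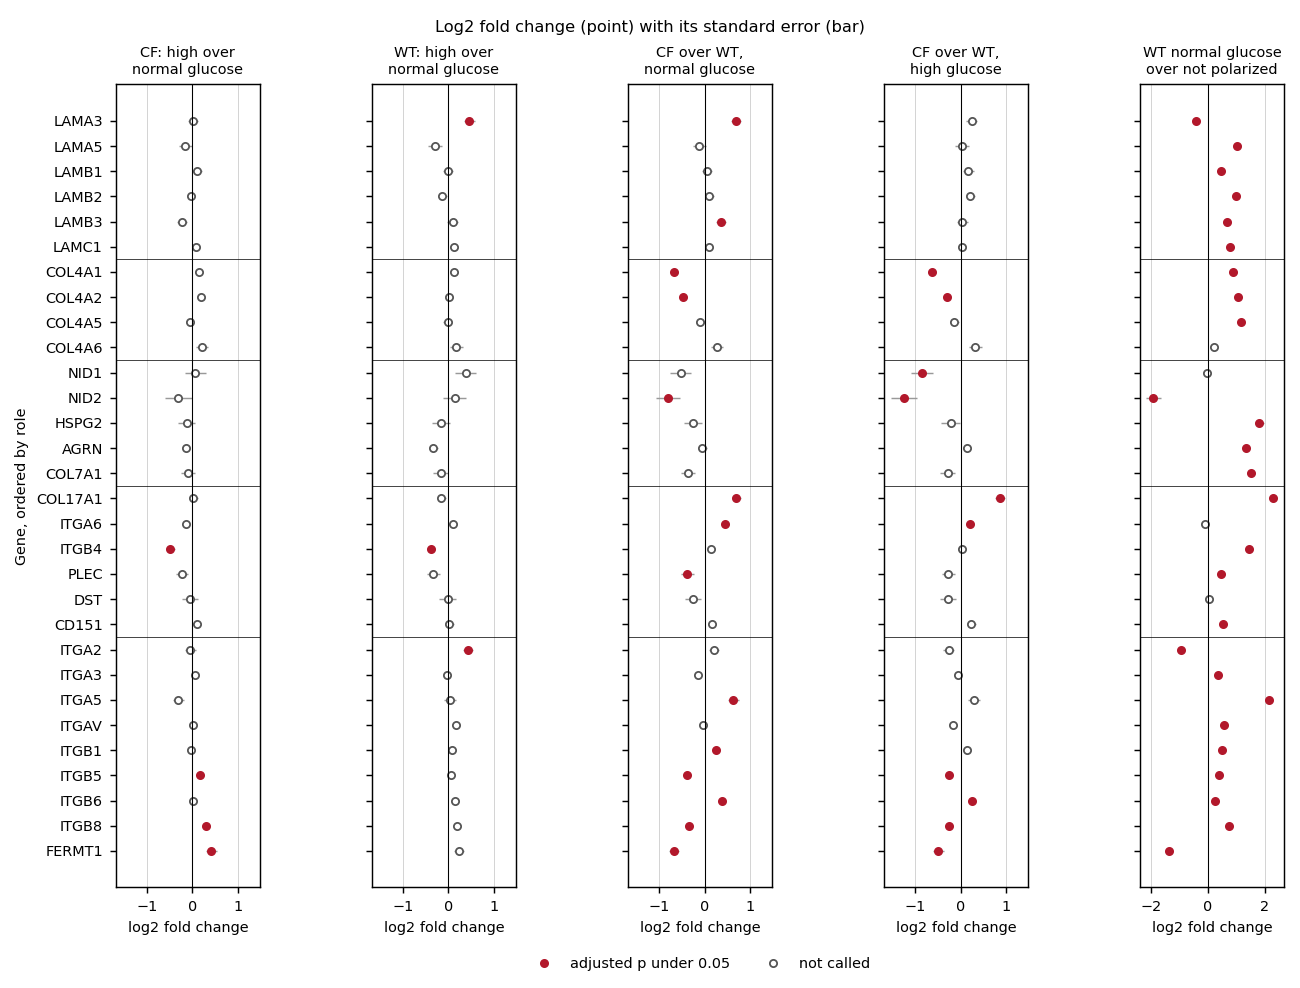
Log2 fold change with SE of 30 of the 32 genes in the glucose comparison of each line, in CF over WT cells at each glucose level, and in polarized (WT normal glucose) over not polarized cells, with filled points where the adjusted p is under 0.05. COL4A3 was not tested and COL4A4, whose values rest on few counts, is left off the axis. Filled points are few in the glucose comparisons (4 and 3) and many in the polarization comparison (26), mostly to the side of higher expression.

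Polarization was the widest contrast. Polarized WT cells in normal glucose had more of 22 members and less of 4 than WT cells that were not polarized, out of 31 tested, where 50% of all genes passed (26% higher, 24.0% lower). The libraries did not overlap for 28 members, against 46.6% of genes. The median member was 0.52 higher on the log2 scale, and the median of all genes tested was 0.02. With the polarized libraries numbered 1 to 3 alone 26 members passed (58.2% of genes), and with those numbered 4 to 6 alone 27 (58.4%). The not polarized libraries carry the numbers 1 to 3, and culture, time and any batch that went with the not polarized state cannot be told apart from it. The fibroblast marker sum was 27.2 to 44.3 CPM in polarized cells and 13.8 to 14.9 CPM in not polarized cells. The endothelial marker sum was 19.8 to 25.4 CPM in polarized cells and 44.8 to 48.9 CPM in not polarized cells. Neither sum overlapped between these groups, and their part in these differences was not tested.

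Among the laminins, 5 of 6 chains were higher in polarized cells and LAMA3 alone was lower. LAMA5 had 1051, 1375 and 1659 CPM in polarized cells, against 686, 687 and 680.1 CPM in not polarized cells (1.03, SE 0.13, adjusted p = 2.46e-05). LAMB2 and LAMC1, its partners, rose by 0.99 and 0.78, and LAMB1 by 0.45 (adjusted p = 4.59e-07, 4.62e-06 and 0.000265). LAMB3 had 1289, 1345 and 1468 CPM in polarized cells, against 859, 877 and 875 CPM in not polarized cells (0.67, SE 0.06, adjusted p = 1.47e-06). LAMA3, its alpha partner, went the other way, with 345, 392 and 442 CPM in polarized cells, against 519, 526 and 537 CPM in not polarized cells, with no overlap (−0.40, SE 0.08, adjusted p = 0.000897).

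Of the collagen IV chains tested, 3 of 5 rose. COL4A1 had 346, 387 and 443 CPM in polarized cells, against 221, 211 and 205 CPM in not polarized cells (0.89, SE 0.08, adjusted p = 8.47e-07), and COL4A2 and COL4A5 rose by 1.06 and 1.19. Of the linkers and anchors, 3 of 5 rose, each by a large factor. HSPG2 had 632, 921 and 1076 CPM in polarized cells, against 252, 259 and 250 CPM in not polarized cells (1.81, SE 0.15, adjusted p = 5.96e-07). COL7A1 had 77.2, 97.6 and 122 CPM in polarized cells, against 34.5, 35.9 and 35.2 CPM in not polarized cells (1.52, SE 0.15, adjusted p = 2.8e-06). AGRN had 1643, 1868 and 2089 CPM in polarized cells, against 738, 739.7 and 739.9 CPM in not polarized cells (1.36, SE 0.08, adjusted p = 1.01e-08). For all 3 genes the polarized libraries lay well above the others. The nidogens did not share this rise. NID1 did not pass (−0.02, adjusted p = 0.848). NID2 had 0.534, 1.13 and 1.40 CPM in polarized cells, against 3.66, 3.91 and 4.15 CPM in not polarized cells (−1.92, SE 0.25, adjusted p = 2.74e-05).

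The largest rise of all members was that of COL17A1 in the hemidesmosome. It had 532, 544 and 575 CPM in polarized cells, against 116, 112 and 114 CPM in not polarized cells, a 4.89-fold difference (2.29, SE 0.06, adjusted p = 5.94e-12). ITGB4 had 1447, 1561 and 1675 CPM in polarized cells, against 570.1, 589 and 581 CPM in not polarized cells (1.46, SE 0.07, adjusted p = 1e-09). PLEC and CD151 rose by 0.48 and 0.52 (adjusted p = 0.00358 and 0.00112), while ITGA6 and DST did not pass (−0.09 and 0.04, adjusted p = 0.251 and 0.837). The ratio of both integrin subunits is tested among the chain ratios below.

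All 9 of the other integrins and kindlin passed, 7 higher and 2 lower. ITGA5 had 339, 346 and 369.6 CPM in polarized cells, against 77.3, 80.8 and 77.8 CPM in not polarized cells, a 4.5-fold difference (2.17, SE 0.06, adjusted p = 9.36e-12). FN1, the fibronectin that this receptor binds, averaged 15590 CPM in polarized cells and 2547 CPM in not polarized cells (2.63, SE 0.13, adjusted p = 2.18e-09). The 2 members that fell were the collagen receptor subunit and the kindlin. ITGA2 had 89.3, 100.1 and 118 CPM in polarized cells, against 203, 192 and 196 CPM in not polarized cells (−0.95, SE 0.08, adjusted p = 2.72e-07). FERMT1 had 10.0, 13.2 and 15.3 CPM in polarized cells, against 34.4, 33.0 and 32.9 CPM in not polarized cells (−1.36, SE 0.11, adjusted p = 1.91e-07). ITGB8, ITGAV, ITGB1, ITGB5, ITGA3 and ITGB6 rose by 0.76, 0.58, 0.49, 0.40, 0.36 and 0.27 on the log2 scale.

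Ratios of FPKM between chains within a library do not depend on the scaling between libraries, and 8 such ratios were compared in the 5 contrasts. Of 40 comparisons 30 passed an exact two-sided permutation test with Benjamini-Hochberg adjustment over the 40 (18 higher, 12 lower). The smallest adjusted p that was reached was 0.00577 between glucose or line groups (unadjusted 0.00216, the smallest 5 or 6 libraries against 6 can give) and 0.0170 for polarization (unadjusted 0.0119, the smallest possible there).

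The ratio of ITGA6 to ITGB4 averaged 0.360 ± 0.0229 in CF high glucose, 0.287 ± 0.0388 in CF normal glucose, 0.318 ± 0.0259 in WT high glucose, 0.226 ± 0.0144 in WT normal glucose and 0.657 ± 0.0160 in not polarized cells (SD). High glucose raised it by 0.34 on the log2 scale in CF cells and by 0.49 in WT cells (exact permutation test, adjusted p = 0.0137 and 0.00577), and polarization lowered it (−1.54, adjusted p = 0.0170). Within libraries 1 to 3 alone the difference in CF cells was 0.13 (exact permutation p = 0.3, where the smallest possible is 0.1). The ratio of ITGA6 to ITGB4 was also higher in CF over WT cells at both glucose levels (0.34 in normal, 0.18 in high glucose, adjusted p = 0.0137 and 0.0260). The call in high glucose was lost without libraries numbered 1, 2, 4 or 5 (adjusted exact permutation p up to 0.0952). The ratio of LAMA3 to LAMB3 averaged 0.137 ± 0.00452 in CF high glucose, 0.117 ± 0.00852 in CF normal glucose, 0.119 ± 0.0113 in WT high glucose, 0.0920 ± 0.00765 in WT normal glucose and 0.194 ± 0.00234 in not polarized cells. It passed in all 5 contrasts, higher with glucose in CF and in WT cells (0.24 and 0.37) and in CF over WT cells at both glucose levels (0.34 in normal, 0.21 in high glucose), and lower with polarization (−1.08). The ratio of LAMA3 to LAMA5 was higher in high glucose in WT cells (0.77) and in CF over WT cells in normal glucose (0.78), and lower with polarization (−1.41).

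Among the receptors, ITGA5 over ITGA2, the fibronectin against the collagen receptor subunit, averaged 4.05 ± 0.310 in CF high glucose, 4.84 ± 0.452 in CF normal glucose, 2.81 ± 0.477 in WT high glucose, 3.65 ± 0.308 in WT normal glucose and 0.417 ± 0.0208 in not polarized cells. Polarization changed it most of all ratios (3.11), and it was lower in high glucose in both lines (−0.26 in CF cells, −0.39 in WT cells) and higher in CF cells at both glucose levels (0.41 in normal, 0.54 in high glucose). ITGB6 over ITGB5 was higher in CF cells at both levels (0.78 and 0.52) and passed in no other contrast. COL4A1 over COL4A2 was lower in CF cells at both levels (−0.19 and −0.33), so COL4A1 was reduced somewhat more than COL4A2. This ratio was also higher in high glucose in WT cells (0.10) and lower with polarization (−0.18). COL4A5 over COL4A6 was lower in CF cells at both levels as well (−0.34 and −0.43) but higher with polarization (0.94). It was also lower in high glucose in CF cells (−0.25), a call lost without libraries numbered 1 (adjusted exact permutation p = 0.0605). The call of ITGA5 over ITGA2 in CF cells with high glucose was lost without libraries numbered 2 (adjusted exact permutation p = 0.0552). LAMB1 over LAMB2 was higher in high glucose in CF cells (0.14) and lower with polarization (−0.53). The first of these calls was lost without libraries numbered 1, 3, 4 or 5 (adjusted exact permutation p up to 0.0657), and within libraries 1 to 3 alone the difference was 0.06 (exact p = 0.3).

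**Figure D5:**
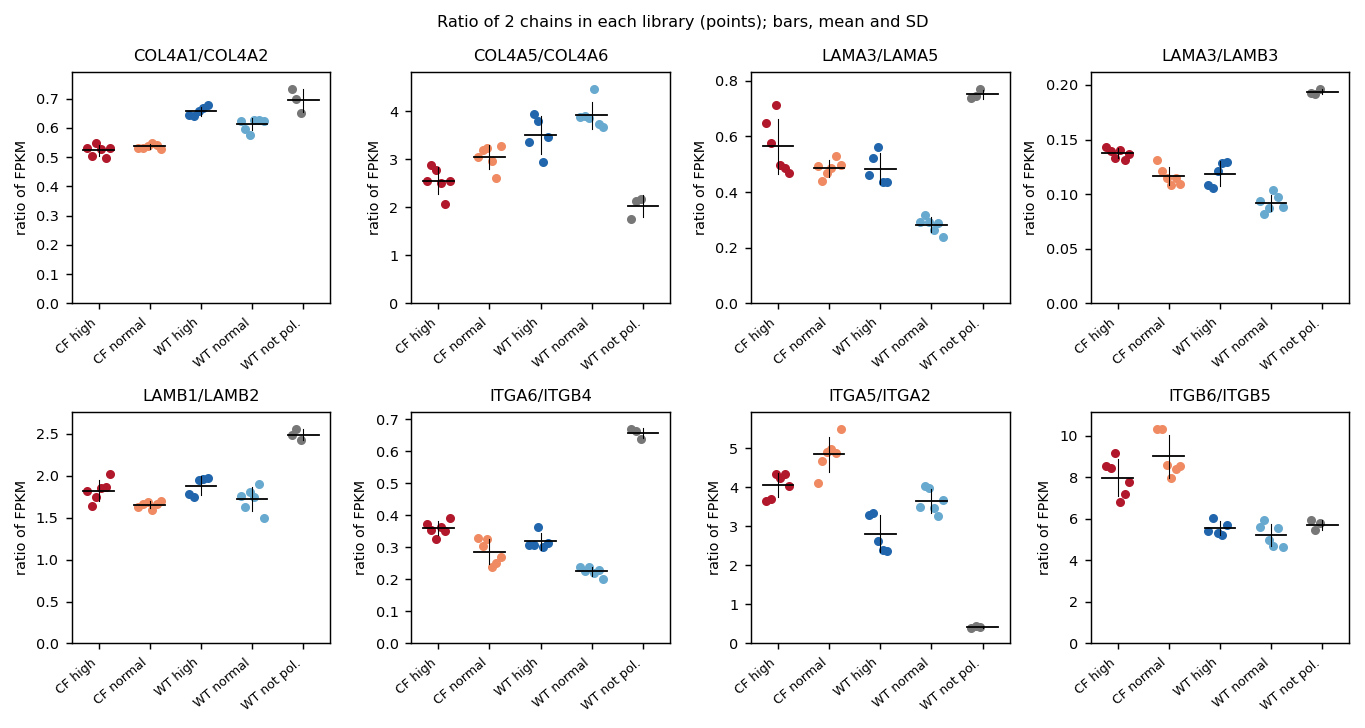
Ratio of FPKM between 8 pairs of chains in every library of the 5 groups, with the mean and SD. ITGA6 over ITGB4 and LAMA3 over LAMB3 are highest in not polarized cells and, within each line, higher in high than in normal glucose, and ITGA5 over ITGA2 is lowest in not polarized cells.

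The rest of the pathway was read from 4 lists of genes, with calls over all genes. Their counts stand against the shares of all genes that passed, which were 26% higher and 24.0% lower with polarization, 4.27% and 4.14% with high glucose in CF cells, 1.49% and 1.47% with high glucose in WT cells, 11.4% and 13.0% between the lines in normal glucose, and 9.35% and 10.6% between them in high glucose. Of other basement membrane proteins and matrix receptors, 21 of 26 rose and 4 fell with polarization. FN1 and MATN2, a matrilin, were the highest of these (MATN2 2.02, SE 0.07, adjusted p = 3.55e-11). EFEMP1, a fibulin, fell (−0.86, adjusted p = 2.8e-07). CD44, the hyaluronan receptor, fell with polarization (−2.09, SE 0.09, adjusted p = 3.39e-10), averaging 19.1 CPM in polarized cells and 82.6 CPM in not polarized cells. In high glucose CD44 rose in both lines, by 0.58 in CF cells and 0.88 in WT cells (adjusted p = 0.0133 and 0.00162), and the tetraspanin TSPAN1 rose by 0.28 and 0.42. THBS1, a matricellular thrombospondin, and MATN2 fell in high glucose in CF cells (−0.50 and −0.16, adjusted p = 0.00363 and 0.0345). COL18A1, a basement membrane collagen, and GPC1, a glypican, fell in WT cells (−0.42 and −0.26, adjusted p = 0.00248 and 0.0111). On this list 3 genes rose and 3 fell in CF cells with high glucose (8.41% of all genes passed), and 2 rose and 4 fell in WT cells (2.96%). Between the lines, 9 were higher and 8 lower in normal glucose, 10 higher and 5 lower in high glucose. TGFBI, a matrix ligand of integrins, averaged 698 CPM in CF normal glucose and 250.5 CPM in WT normal glucose (1.48, SE 0.09, adjusted p = 8.83e-13). HMCN1, a hemicentin, and FRAS1, a basement membrane protein, were lower in CF cells in normal glucose (−2.02 and −1.21). In high glucose TGFBI and MATN2 were higher in CF cells (1.39 and 0.70), and HMCN1 and THBS1 lower (−1.55 and −1.32). MATN2 was also higher in CF cells in normal glucose (0.61).

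Of 21 collagen processing genes tested, 14 rose and 1 fell with polarization, where 26% of all genes rose and 24.0% fell. LOXL2, a lysyl oxidase that crosslinks collagen IV, averaged 1433 CPM in polarized cells and 187 CPM in not polarized cells (2.96, SE 0.07, adjusted p = 1.32e-12), and P4HA1, a collagen prolyl hydroxylase, rose by 2.11. The 1 that fell was the protease ADAMTS1 (−1.07). Between the lines 10 were higher and 4 lower at each glucose level, where 24.4% of all genes passed in normal and 19.9% in high glucose. LOXL2 was lower in CF cells in normal glucose (−1.13, SE 0.06, adjusted p = 9.16e-14), where COL4A1 and COL4A2 were also lower, and P4HA1 and PLOD1, a lysyl hydroxylase, were higher (0.54 and 0.44). P4HA1 and PLOD1 were also higher in CF cells in high glucose (0.52 each), and ADAMTS1 was lower at both levels (−1.19 in normal, −1.45 in high glucose). PRSS23, a serine protease, was lower in CF cells in high glucose (−1.05, adjusted p = 4.18e-12). High glucose raised 3 genes in CF cells and 1 in WT cells, with PRSS23 in both (0.42 and 0.37, adjusted p = 0.000125 and 0.00176) and LOXL1, another lysyl oxidase, in CF cells (0.39, adjusted p = 0.0104). LOXL2 fell in WT cells with high glucose (−0.26, adjusted p = 0.0174).

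Of 32 focal adhesion adaptors and kinases, all tested, 9 rose and 12 fell with polarization (26% and 24.0% of all genes), for example FLNA, the actin crosslinker filamin A (0.61), and the paxillin relative TGFB1I1 (0.52), against TNS4, a tensin, and PARVA, a parvin (−0.95 and −0.91). Between the lines 1 was higher and 8 lower in normal glucose and 1 higher and 10 lower in high glucose, the higher one in both being ZYX, zyxin (0.49 and 0.40, adjusted p = 1.67e-05 and 0.000535). TGFB1I1 was lower at both levels (−0.41 and −0.57), TNS3, a tensin, in normal glucose (−0.41) and LPP, a relative of zyxin, in high glucose (−0.51). High glucose lowered PXN, the adaptor paxillin, and FERMT2, another kindlin, in CF cells (−0.29 and −0.16, adjusted p = 0.00803 and 0.042) and raised TNS1, a tensin, in WT cells (0.43, adjusted p = 0.0286). Of other integrin and laminin chains, 6 of 12 rose and 2 fell with polarization. ITGB3, a beta subunit of vitronectin receptors, averaged 1.18 CPM in polarized cells and 0.244 CPM in not polarized cells (2.25, SE 0.34, adjusted p = 8.69e-05), and LAMA2, a laminin alpha chain of muscle, fell (−1.72, adjusted p = 2.17e-06). LAMC3, a laminin gamma chain, was lower in CF cells at both glucose levels (−1.77 and −1.53, adjusted p = 8.23e-06 and 0.000125) and higher with polarization (1.10). ITGA7 was lower in normal glucose (−0.57) and LAMA1 in high glucose (−0.51). Of 11 such chains tested 1 was higher and 3 lower in normal glucose, and 1 higher (ITGA1, a collagen receptor subunit, 0.57) and 4 lower in high glucose. ITGA1 was lower with polarization (−0.54, adjusted p = 0.021). With high glucose 0 passed in CF cells by edgeR and 1 rose in WT cells. None of the 4 lists had a gene past the threshold in the interaction by edgeR.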

How the data were processed

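Values are gene counts and FPKM that the authors deposited in separate tables, with reads aligned by HISAT2 to hg38 per the submitters' processing notes. The counting tool is not given in the sources used here, nor is its use of strand. Both deposited units were used as given. The 23 glucose libraries shared 1 fit, and polarization had its own: edgeR 4.0.16 (R 4.3.3), filterByExpr (minimum count 10, minimum total 15), TMM, robust quasi-likelihood test, Benjamini-Hochberg over all genes tested, called under 0.05. CPM is the count scaled to the library total after adjustment by TMM factors over all 26 libraries (0.937 to 1.04). Chain ratios used log2(FPKM + 0.1) in Python 3.11.15.

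The alternatives were DESeq2 1.42.0, limma 3.58.1 on log2(FPKM + 1) and log2(FPKM + 0.1), RLE factors, other low-count filters, other sets of libraries in the fit, library numbers as a block or set, and each library left out. Scripts were tested on simulated data. Members and gene lists were chosen with earlier results of these data known. Values by library are given for up to 8 called members per comparison with the largest change and at least 1 CPM in 1 group, and for LAMA3, LAMB3, COL17A1, ITGA6, ITGB4, COL4A1 and COL4A2; of each list, up to 2 called genes with the highest and up to 2 with the lowest fold change are named. One gene that this rule takes is not reported here. Libraries with the same number deviated together about as much as libraries with other numbers of the same set, so numbers were not taken as pairs. The mean correlations were 0.235 against 0.213 in CF glucose and 0.205 against 0.199 in WT glucose. Between the lines they were 0.139 against 0.146 in normal and 0.205 against 0.204 in high glucose. The lowest for the same number was 0.0469 to 0.0715 in these comparisons and −0.0241 for polarization. Libraries of a set thus deviated together across groups, and the main fits hold no term for the set.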

Additional observations from a re-analysis of the deposited data

Results flagged for a closer look

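Of 128 gene and group combinations with 4 to 10 libraries, 3 held a library that stood apart from the others of its group; chance gives about 1 in 20. COL4A6 had 12.7 CPM in WT normal glucose library 6, against 10.1 to 10.9 CPM in the other libraries of that group. CD151 had 191 CPM in CF normal glucose library 3, against 150.3 to 163 CPM in the others. ITGA5 had 370 CPM in WT normal glucose library 5, against 339 to 349 CPM in the others.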

How the results depend on the processing

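The polarization counts held under every alternative run, with 26 or 27 members called. In CF cells with high glucose, 4 members were called; 2 were with limma on log2(FPKM + 1) without a filter or with only the groups compared in the fit, 9 with libraries 1 to 3 alone or libraries 4 to 6 alone, 10 with a term for the set of numbers, and 2 to 4 on leaving out 1 library. In WT cells 3 were called; the counts were 0, 7, 6 and 7 with limma on log2(FPKM + 1) without a filter, libraries 1 to 3 alone, libraries 4 to 6 alone and the set term, and 1 to 3 on leaving out 1 library. The interaction called 0 members; 2 passed with the set term, 6 with libraries 4 to 6 alone and 0 on leaving out any library. Line counts on leaving out 1 library were 13 to 15 in normal glucose (15 with all) and 9 to 10 in high glucose (10 with all), where the set term gave 24 and libraries 4 to 6 alone 21. With library number as a block, without evidence that numbers pair the libraries, 9, 6, 1, 23 and 20 members were called in the CF glucose, WT glucose, interaction, normal glucose line and high glucose line comparisons, and 26 for polarization. Over all genes the block called 2561, 1092, 73, 5423 and 4591 of 16338 in the same order, and 8885 of 16105 for polarization. On leaving out 1 library, genes called numbered 1065 to 1597 in CF glucose and 281 to 465 in WT glucose. Between the lines they numbered 3629 to 4023 in normal glucose and 2856 to 3120 in high glucose. The log2 fold changes that turned sign and passed the threshold under an alternative were ITGA2 (0.26 within libraries 1 to 3), LAMA3 (−0.20) and NID1 (−0.32) within libraries 4 to 6 in CF glucose, and ITGAV (0.20) between lines in normal glucose within libraries 4 to 6. The cause was not tested. Over all genes, calls in CF glucose were 1374 (891 with no filter, 2330 with libraries 4 to 6 alone, 2561 with the block, 2812 with the set term). Calls in WT glucose were 484 (780 with DESeq2, 319 with no filter), and in the interaction 6 (63 with DESeq2, 146 with the set term). Of genes called in CF glucose 50.8% were higher, and 39.7% with libraries 4 to 6 alone. Chain ratios called numbered 30 with each pseudocount and 20 to 30 on leaving out 1 library number; without a not polarized library all 7 polarization ratios missed the threshold, which so few libraries cannot reach after adjustment. COL4A3, with at most 10 counts in a library, was below the count filter, so differences in it were not tested in the main fits.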
